A study of Mus musculus with 2 samples.

Results

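Bcl11a and Sox6 are a pair of transcriptional repressors of the embryonic globin genes, and CTCF binding in and around them was described in embryonic mouse liver. A CTCF peak was taken as a member when its summit lay between the ends of either gene in GENCODE vM21 or within 100 kb beyond them. This gave 30 of the 50909 peaks of the optimal list, 15 in the Bcl11a window and 15 in the Sox6 window. The list is the deposited set of peaks that passed a threshold on the irreproducible discovery rate (IDR). IDR measures how consistently a peak ranks between peak lists. Passing the threshold did not require a peak in each replicate. Of the 50909 peaks, 47605 had a summit in the lists of both replicates within 100 bp. Chromatin immunoprecipitation with sequencing (ChIP-seq) had been made with an antibody to CTCF on livers of B6NCrl embryos at 14.5 days. No mutation or treatment is named. Per the labels, the pulverised livers came from several dissections and were pooled over both sexes. The 2 libraries form 1 group and share 1 biosample, although they are numbered as biological replicates, so their spread covers library making and sequencing and no condition can be compared. Peaks are not replicates, and no test was run on them. ChIP-seq of CTCF measures no expression, so neither the tissue label nor the level of either gene could be checked.

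BCL11A is a zinc finger protein that silences the fetal globin genes in human adult red cell precursors, and its mouse counterpart silences embryonic beta-like globin genes in the definitive erythroid cells that arise in the fetal liver. Sox6, a factor with a high mobility group box, binds the promoter of the mouse embryonic globin gene Hbb-y and represses it, and it acts together with BCL11A at the beta-globin cluster of human cells. Both genes also work outside blood, Bcl11a in lymphocytes and neurons and Sox6 in cartilage and muscle. CTCF is a zinc finger protein that binds a long, directional DNA motif. It blocks enhancers at insulators and holds the anchors of chromatin loops, many of which join motifs that point toward each other.

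Most of the peaks lay on letters close to the CTCF motif. Peaks were numbered along the chromosome in each window. The core CTCF motif was searched on both strands within 50 bp of each summit with at most 2 mismatches allowed, and 21 of the 30 member peaks held a match. That was 70.0%, against 70.8% of the optimal peaks placed on chromosomes and 3% of windows moved by 1 kb. Of the 21 matches, 4 had no mismatch, 8 had 1 and 9 had 2. The Bcl11a sequences below belong to the strong peaks, the promoter peak, the weakest peak and the outermost peaks that had a match. Each is 60 bases of mm10, read 5′ to 3′ on the strand of the motif, with the match in capitals.
Bcl11a 1 (chr11:23979491-23979550, plus strand): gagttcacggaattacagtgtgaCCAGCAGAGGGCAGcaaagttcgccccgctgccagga
Bcl11a 3 (chr11:24049371-24049430, plus strand): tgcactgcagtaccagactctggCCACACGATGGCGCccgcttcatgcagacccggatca
Bcl11a 4 (chr11:24053058-24053117, plus strand): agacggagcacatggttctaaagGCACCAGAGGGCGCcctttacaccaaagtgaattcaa
Bcl11a 7 (chr11:24077491-24077550, minus strand): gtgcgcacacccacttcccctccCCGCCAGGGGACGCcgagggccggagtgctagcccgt
Bcl11a 13 (chr11:24217881-24217940, plus strand): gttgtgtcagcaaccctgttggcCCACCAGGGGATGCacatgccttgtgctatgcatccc
Bcl11a 15 (chr11:24257898-24257957, plus strand): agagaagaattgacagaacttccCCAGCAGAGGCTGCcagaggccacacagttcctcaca
Bcl11a 1 carried the motif with no mismatch, and Bcl11a 4 had 1 mismatch. The strongest peak of the window, Bcl11a 3, had 2 mismatches, as did Bcl11a 7, 13 and 15.

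The Sox6 sequences were chosen by the same rule and are printed the same way, except that Sox6 15 lies in an untranslated exon of Plekha7 and is cut to 30 bases.
Sox6 1 (chr7:115373844-115373903, minus strand): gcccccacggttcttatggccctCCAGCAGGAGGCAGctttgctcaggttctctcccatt
Sox6 3 (chr7:115453464-115453523, plus strand): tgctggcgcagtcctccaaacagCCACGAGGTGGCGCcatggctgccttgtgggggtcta
Sox6 4 (chr7:115489807-115489866, minus strand): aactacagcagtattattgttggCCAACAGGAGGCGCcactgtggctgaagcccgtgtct
Sox6 6 (chr7:116033078-116033137, minus strand): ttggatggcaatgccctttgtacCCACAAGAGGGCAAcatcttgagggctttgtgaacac
Sox6 14 (chr7:116132252-116132311, plus strand): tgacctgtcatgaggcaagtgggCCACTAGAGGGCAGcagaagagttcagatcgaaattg
Sox6 15 (chr7:116134596-116134625, plus strand): agcgccagCCACCAGGGGCAGCaccaattt
Sox6 14 matched with no mismatch, Sox6 1 and 3 with 1, and Sox6 4, 6 and 15 with 2. The strongest peak of the window, Sox6 7, is not shown because its closest letters to the motif had 3 mismatches.

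Bcl11a spans 96.1 kb of the plus strand at chr11:24078056-24174123 (ENSMUSG00000000861.15). Its window of 296 kb held 15 peaks, or 50.7 per Mb. The gene body held 4 of them, the upstream flank 7 and the downstream flank 4. The deposited signal, a value of the peak caller whose scale the sources do not state, ran from 30.5 to 556 in this window with a median of 60.8, against a median of 67.9 over all optimal peaks. Of the 15 peaks, 5 lay above that list median. Because the liver holds several cell types, the share of cells bound and the strength of binding per cell cannot be told apart. The strong binding lay upstream of the gene, while no peak of the downstream flank exceeded 63.8.

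**Figure D1:**
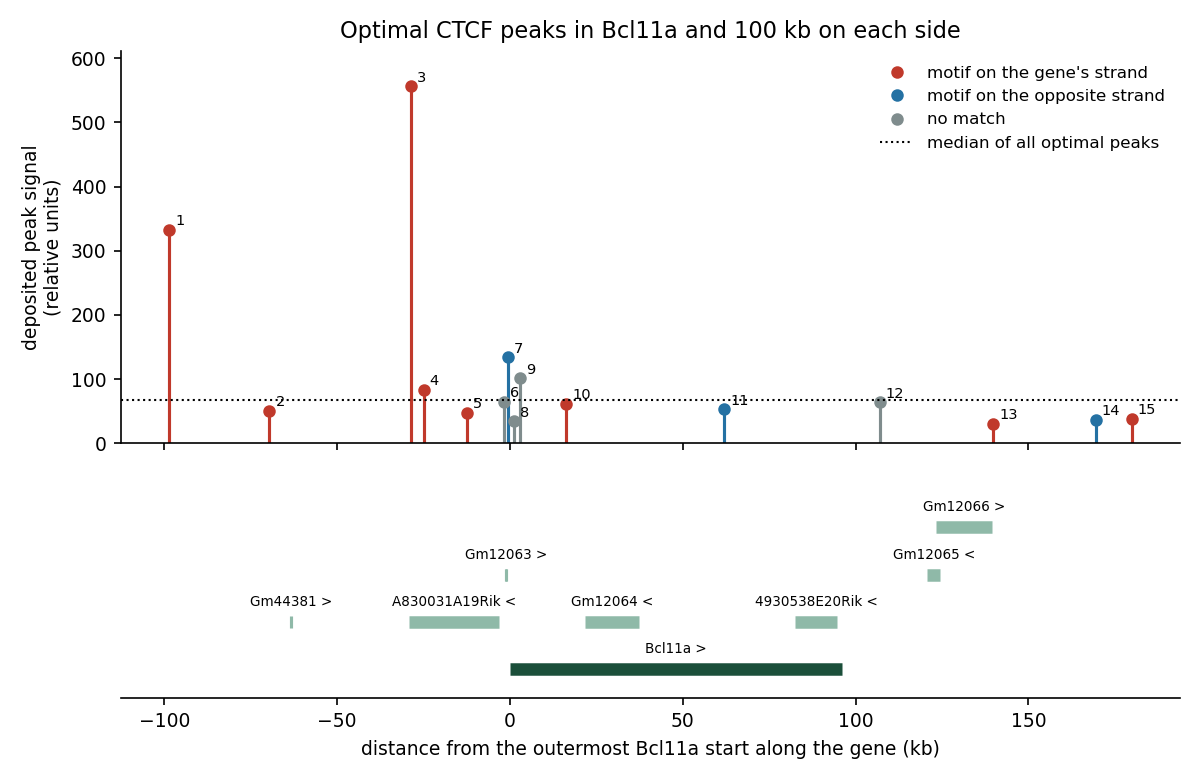
Deposited signal of the 15 optimal CTCF peaks (vertical axis, relative units) against distance along the gene from the outermost Bcl11a start (horizontal axis, kb), with peak numbers, motif strand by colour and annotated genes below; > marks genes that run in the direction of Bcl11a and < the opposite. The highest peak, at 556, lies in the upstream flank, and the downstream flank stays at or under 63.8.

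Signals of the replicates are given on a relative scale, on which 1 is the median of the 50909 strongest peaks of that replicate. Bcl11a 3 at chr11:24049247-24049574 had the highest signal of all 30 members, 556, and ranked 142 in the optimal list. It lies 28650 bp upstream of the outermost Bcl11a start, in a coding exon of the protein-coding gene A830031A19Rik. Its relative signal was 10 in replicate 1 and 6.83 in replicate 2, or 8.42 ± 2.25 (SD, n = 2). Both values lay far above the median of 1. Bcl11a 4, at chr11:24052922-24053237 and 3674 bp farther along inside the same gene, had a signal of 82.9. Its relative signals were 1.27 and 1.32 in replicates 1 and 2, or 1.29 ± 0.0338 (SD, n = 2).

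Bcl11a 1 marked the outer edge of the window, 98529 bp upstream of the gene at chr11:23979402-23979670, in sequence with no annotated gene. It was the second strongest peak, with a signal of 332 and rank 3776. Replicate 1 gave 6.03 and replicate 2 gave 4.01, or 5.02 ± 1.43 (SD, n = 2). Bcl11a 2 and 5, the remaining upstream peaks more than 10 kb from the gene, were below the list median at 50.4 and 46.8, with relative signals of 0.755 ± 0.0259 and 0.709 ± 0.146 (SD, n = 2 each).

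The start of Bcl11a carried a cluster of 4 peaks within 5 kb. Bcl11a 7 at chr11:24077454-24077600 was the promoter peak, 548 bp upstream of the outermost Bcl11a start, with a signal of 134 and rank 15396. Its relative signal was 2.51 in replicate 1 and 1.52 in replicate 2, or 2.01 ± 0.700 (SD, n = 2). Bcl11a 9 at chr11:24081048-24081197 lay 434 bp from the start of a shorter protein-coding transcript, inside intron 1 of the transcript that starts farthest upstream. Its signal was 101, and its relative signals were 1.63 and 1.24 in replicates 1 and 2, or 1.44 ± 0.277 (SD, n = 2). These were the 2 peaks within 1 kb of a Bcl11a start, and both were above 1 in both replicates.

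Bcl11a 6 at chr11:24076229-24076544 sat 172 bp from the start of Gm12063, a long noncoding RNA gene just upstream that runs in the same direction as Bcl11a. Its signal of 64.8 was near the list median, with 1.07 in replicate 1 and 0.921 in replicate 2, or 0.994 ± 0.104 (SD, n = 2). Bcl11a 8, 1026 bp from a start in intron 1, was weaker at 33.9, with a relative signal of 0.504 ± 0.123 (SD, n = 2). Bcl11a 6, 8 and 9 had no motif match and lay in GC-rich sequence. The GC content within 100 bp of their summits was 66.2%, 71.6% and 64.2%, against a list median of 50.2%.

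Farther inside the gene, intron 2 held Bcl11a 10 and 11. In human red cell precursors this intron carries an erythroid enhancer of the gene, whose mouse position was not placed here. Bcl11a 10, at chr11:24094207-24094522, had a signal of 60.8 and relative signals of 1.03 and 0.801 in replicates 1 and 2. Bcl11a 11, at chr11:24139962-24140277, carried a motif with no mismatch and yet had a signal of only 52.8. Its relative signal was 0.561 in replicate 1 and 0.973 in replicate 2, 1 of 3 Bcl11a peaks that were higher in replicate 2. Neither intron 2 peak exceeded the list median. The widest gap between neighbouring peaks of the window, 45755 bp, separated this pair.

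Binding past the 3′ end of Bcl11a was modest. Bcl11a 12 to 15 had signals of 63.8, 30.5, 36.9 and 38.1. Bcl11a 13 at chr11:24217749-24218064 was the weakest peak of the window, with 0.534 and 0.343 in replicates 1 and 2, or 0.439 ± 0.135 (SD, n = 2). The outermost, Bcl11a 15 at chr11:24257775-24258090, had 0.783 in replicate 1 and 0.340 in replicate 2, or 0.561 ± 0.314 (SD, n = 2). Among the 28 members with a value in both replicates, Bcl11a 14 differed most between the libraries, at 0.823 in replicate 1 and 0.294 in replicate 2, a ratio of 2.80. The first peaks beyond the window lay 23.5 kb and 58.5 kb outside its left and right edges, with signals of 31.0 and 32.0, while the outermost members had 332 and 38.1.

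Sox6 is a gene of 568 kb on the minus strand at chr7:115470872-116038796 (ENSMUSG00000051910.13), and most optimal peaks of its window lay in the flanks. The window of 768 kb held 15 peaks, or 19.5 per Mb. The gene body held 3, or 5.28 per Mb, against 12 in the flanks of 100 kb each, or 60.0 per Mb. The upstream flank, beside the start, held 9 and the downstream flank 3. Signals ran from 14.0 to 365 with a median of 61.8, and 6 of the 15 lay above the list median of 67.9.

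**Figure D2:**
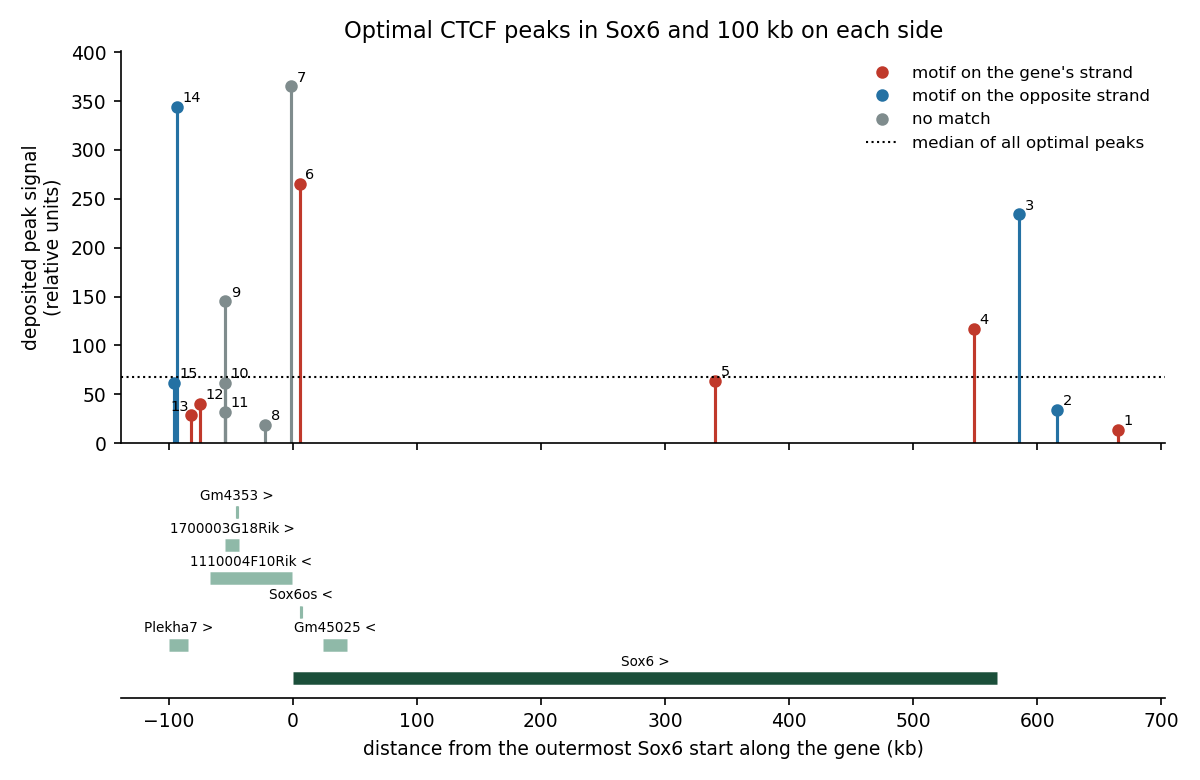
Deposited signal of the 15 optimal CTCF peaks (vertical axis, relative units) against distance along the gene from the outermost Sox6 start (horizontal axis, kb), with peak numbers, motif strand by colour and annotated genes below; > marks genes that run in the direction of Sox6 and < the opposite. The upstream flank holds 9 of the 15 peaks, and Sox6 5 stands alone in the middle of the gene with 335 kb free of optimal summits on its start side.

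Around the Sox6 start, a pair of strong peaks lay 7288 bp apart on either side of it. Sox6 6 at chr7:116032982-116033213 was the 1 peak within 1 kb of a Sox6 start, 488 bp from the start of a transcript annotated as a retained intron, and inside intron 1 of the protein-coding transcript of 16 exons taken as reference. It had a signal of 265 and rank 6479, with 3.66 in replicate 1 and 4.52 in replicate 2, or 4.09 ± 0.607 (SD, n = 2). Unlike most members, it was higher in replicate 2.

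Sox6 7 at chr7:116040260-116040533 was the strongest peak of the window, with a signal of 365 and rank 2782. It lies 1606 bp upstream of the outermost Sox6 start and 690 bp from a start of 1110004F10Rik, the protein-coding gene that runs head to head with Sox6. Its relative signal was 6.81 in replicate 1 and 4.18 in replicate 2, or 5.49 ± 1.86 (SD, n = 2). With a window of 5 kb around starts in place of 1 kb, Sox6 7 would count as a Sox6 promoter peak as well.

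The upstream flank held a run of weaker peaks and a second strong site. Sox6 9, 10 and 11, from chr7:116093058-116093247 to chr7:116093418-116093733, overlapped each other at further starts of 1110004F10Rik and at the start of 1700003G18Rik, a noncoding transcript gene. Their signals were 145, 61.8 and 32.3, and counting them as 1 gave 13 peaks in the window. Sox6 9 had 2.88 and 1.44 in replicates 1 and 2, or 2.16 ± 1.02 (SD, n = 2). Sox6 10 had 1.88 in replicate 1 and no peak of replicate 2 within 100 bp. None of the 3 had a motif match. Sox6 14 at chr7:116132128-116132399, 344 in signal and 3417 in rank, lay inside Plekha7, the gene of an adherens junction protein. It had 6.18 in replicate 1 and 4.19 in replicate 2, or 5.18 ± 1.41 (SD, n = 2). Sox6 15 at chr7:116134443-116134758, the outermost peak, reached 61.5, with 1.18 and 0.615 in replicates 1 and 2, or 0.898 ± 0.399 (SD, n = 2).

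Inside the gene, Sox6 4 at chr7:115489767-115489862 lay in the coding part of exon 14 of 16 of the same reference transcript. It had a signal of 117 and rank 17404, with 2.45 in replicate 1 and 1.16 in replicate 2, or 1.81 ± 0.916 (SD, n = 2). Sox6 5 at chr7:115698155-115698470, in intron 5, was the sole optimal peak between that exon and the start region. Its signal was 63.6, and its relative signal was 0.610 in replicate 1 and 1.25 in replicate 2, or 0.933 ± 0.456 (SD, n = 2), on opposite sides of the median. Past the 3′ end, Sox6 3 at chr7:115453372-115453623 was the strong peak, with a signal of 234 and rank 8004. It had 4.50 and 2.55 in replicates 1 and 2, or 3.52 ± 1.38 (SD, n = 2). The first peaks outside the window lay 3.78 kb and 17.9 kb beyond its edges, with signals of 197 and 34.4, next to outermost members of 14.0 and 61.5.

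The gap between Sox6 5 and 6 measured 334801 bp, and that between Sox6 4 and 5 measured 208505 bp. Among the 50868 distances between neighbouring optimal summits, whose median was 14781 bp, 1116 were longer than the wider gap, or 2.19%. Among the 354 protein-coding genes over 400 kb, however, the median widest gap was 317 kb, and 155 of them, or 43.8%, had a longer one than Sox6. Other lists of like length were also sparse there, but they were made from the same 2 libraries and are no independent support. The pooled list ranked Sox6 5 and 6 at 26485 and 6481, against 26470 and 6479 in the optimal list. Its count in a gap chosen from the optimal list was therefore largely set in advance. Each replicate placed 1 of its 50909 strongest peaks in the gap, or 2.99 per Mb against 18.7 per Mb of the genome, the companion IDR list named conservative placed 1, and the 50909 strongest peaks of the pooled list placed 0. The 100000 strongest peaks of replicates 1 and 2 placed 9 and 11, or 26.9 and 32.9 per Mb, against 36.7 per Mb of the genome.

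In density inside the gene, Bcl11a stood near the upper quartile for its length and Sox6 below the middle for its own. Bcl11a had 41.6 peaks per Mb of gene body, against a median of 23.8 (quartiles 11 to 44.1) over 4009 protein-coding genes of 50 to 200 kb, and exceeded 73.0% of them. Sox6 had 5.28 per Mb, against a median of 7.12 (quartiles 2.99 to 14.0) over the 354 genes above 400 kb, and exceeded 39.3% of them. Using each replicate's 50909 strongest peaks, the Bcl11a body held 7 and 4 peaks in replicates 1 and 2 (5.50 ± 2.12, SD, n = 2), and the Sox6 body held 7 and 5 (6.00 ± 1.41, SD, n = 2). Both replicates gave Sox6 more peaks than the 3 of the optimal list, and the conservative list gave it 5. The widest gap of the Sox6 window was 202 kb in the conservative list and in replicate 1, and 254 kb in replicate 2.

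**Figure D3:**
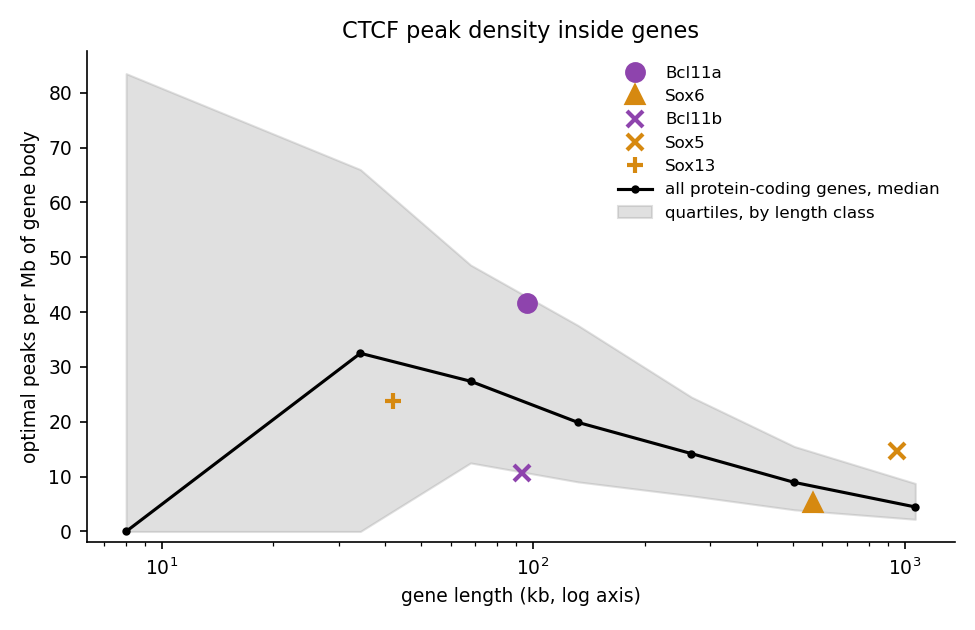
Optimal CTCF peaks per Mb of gene body (vertical axis) against gene length (horizontal axis, kb, log scale) for Bcl11a, Sox6 and their relatives, with the median (line) and quartiles (band) of all protein-coding genes by length class. Bcl11a lies at 41.6 per Mb and Sox6 at 5.28 per Mb, both within the band at their lengths.

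The closest relatives had other layouts of peaks. Bcl11b, the paralog of Bcl11a needed for T cell development, is of like length but had 4 peaks in its window, 1 of them in the gene and none within 1 kb of a start, against 15, 4 and 2 for Bcl11a. Sox5, the paralog that works with Sox6 in cartilage, had 14 peaks inside its 954 kb, or 14.7 per Mb, and 2 in its flanks, against 3 inside and 12 in the flanks of Sox6. Sox13, the remaining SoxD gene, held 9 peaks in its window, 1 of them within the gene. These are counts from 1 list, and the differences were not tested.

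Most members were found in more than 1 list. Of the 30 members, 29 had a conservative summit within 100 bp, or 96.7%, against 86.4% of the optimal list. A summit among the 50909 strongest peaks of both replicates lay within 100 bp for 27, or 90.0%, against 76.7% of the list. All 15 Bcl11a peaks had both kinds of support, while in the Sox6 window 14 and 12 had them. Sox6 8 at chr7:116060784-116061099, without conservative support, was weak in both libraries, with a signal of 18.5 and relative signals of 0.147 and 0.290 in replicates 1 and 2, or 0.219 ± 0.101 (SD, n = 2). Sox6 1 at chr7:115373703-115374018, the weakest member at 14.0 and the outermost on its side, had 0.258 in replicate 2 and no peak of replicate 1 within 100 bp. Sox6 10, given above, was the remaining member without support in both replicates. The conservative list in turn held 1 peak in the Bcl11a window and 3 in the Sox6 window with no optimal summit nearby, with signals of 15.4 to 24.9 in that list.

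Replicate 1 tended to give the higher relative signal. It was higher at 21 of the 28 members with a value in both replicates, and replicate 2 was higher at 7. The median log2 ratio of replicate 1 to replicate 2 was 0.53 for the members and 0.30 over the 47605 optimal peaks with both values, of which 63.6% were higher in replicate 1. Of the 28 ratios, 27 lay between the 5th and 95th percentiles of the list, at log2 values of -1.50 and 1.43. Bcl11a 1 and 3 and Sox6 6, 7 and 14 each exceeded a relative signal of 3 in both libraries, and no other member did. Bcl11a 3 was the highest in both, while Sox6 6 was the lowest of these in replicate 1 and the second highest in replicate 2.

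**Figure D4:**
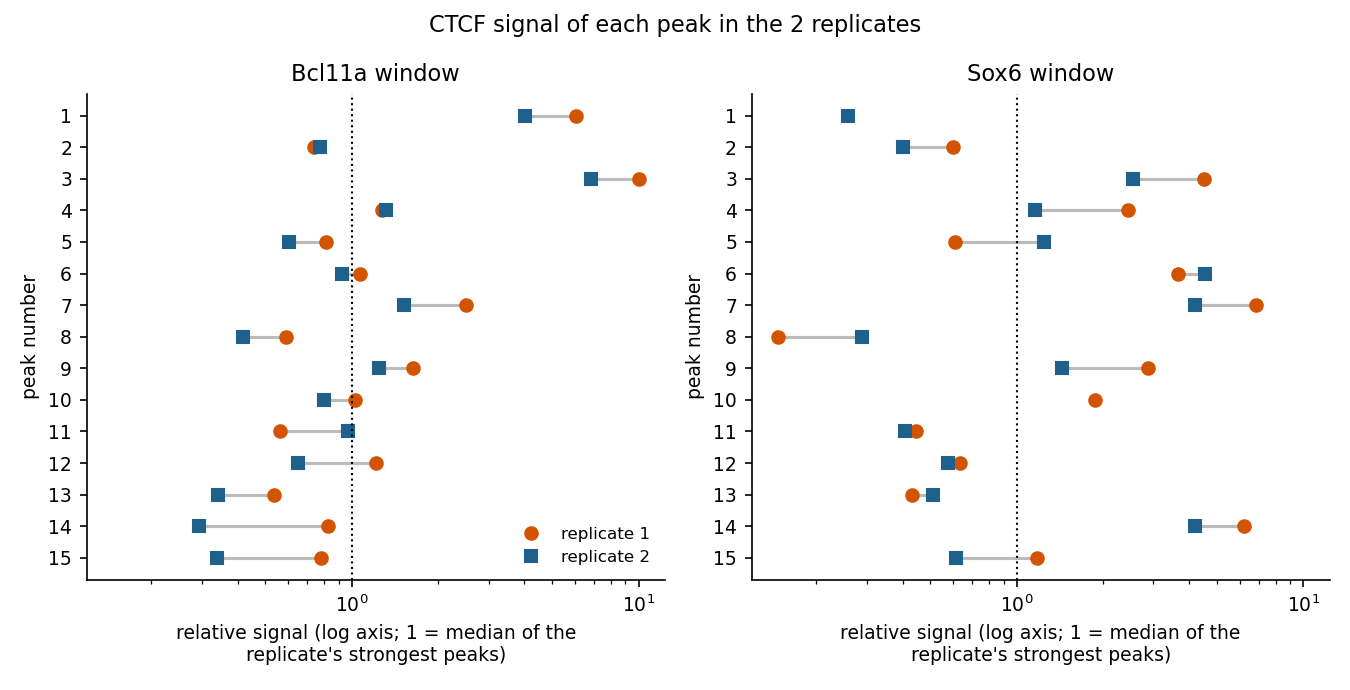
Relative signal of each member peak (horizontal axis, log scale, 1 is the median of that replicate's strongest peaks) in replicate 1 (circles) and replicate 2 (squares), by peak number (vertical axis), with a line joining the 2 values. Bcl11a 1 and 3 and Sox6 6, 7 and 14 stand to the right in both replicates, and Sox6 1 and 10 have a value in 1 replicate each.

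In the Bcl11a window, 8 of the 11 motif matches lay on the gene's strand and 3 on the other. The latter were those of Bcl11a 7, 11 and 14, while Bcl11a 10, 13 and 15 had the gene's strand. The 5 upstream peaks Bcl11a 1 to 5 all carried the motif on the gene's strand, pointing toward the gene. Bcl11a 7, at the promoter, pointed back at them, so that Bcl11a 5 and 7 formed a convergent pair 12 kb apart. Of the 10 pairs of neighbouring matches, 3 were convergent, 3 divergent and 4 on the same strand. In the Sox6 window, 6 of 10 matches lay on the gene's strand. Sox6 4, 5, 6, 12 and 13 formed a run on that strand from exon 14 to the upstream flank, bounded by Sox6 3 and 14 on the other strand. Sox6 3 and 4 were the 1 convergent pair among 9, 36.3 kb apart and on either side of the 3′ end of the gene. No chromatin contacts were measured, so these are directions of letters and not loops. No share of strands or pairs over the whole list is set beside these counts, so they cannot be called particular to either gene.

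Signals varied widely within each motif class. The 4 peaks with no mismatch had a median of 192 but ran from 33.9 to 344, against a list median of 195 for that class. The 8 with 1 mismatch had a median of 43.3, against 102 in the list, and the 9 with 2 had 63.6, against 62.2. The 9 without a match had a median of 63.8, against 35.6, and included Sox6 7 at 365. Of those 9, 6 lay within 1 kb of an annotated start of some gene, or 66.7%, against 37.9% of such peaks in the list. Of the 21 members with a match, 2 did, or 9.52%, against 15.5% in the list. The 6 without a match include Sox6 9, 10 and 11, which overlap at neighbouring starts, so their share counts the same site repeatedly. The median GC content was 59.2% for the members without a match and 50.2% for those with one, against 53.7% and 49.3% in the list.

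**Figure D5:**
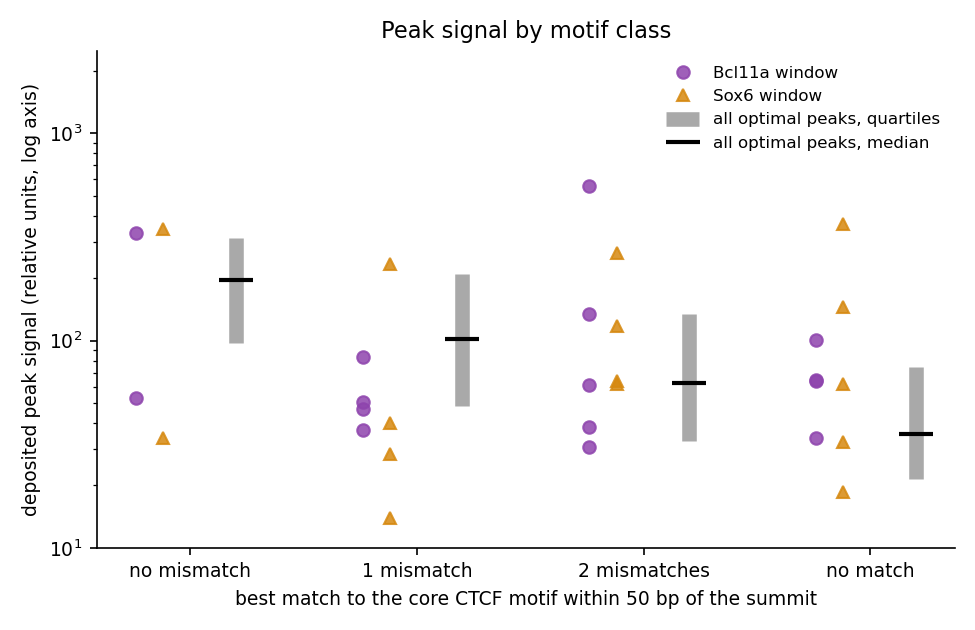
Deposited signal of the members (vertical axis, relative units, log scale; circles Bcl11a window, triangles Sox6 window) by the number of mismatches of the best core CTCF motif within 50 bp (horizontal axis), beside the median (line) and quartiles (bar) of all optimal peaks. List medians fall across the 4 classes, at 195, 102, 62.2 and 35.6, while members without a match reach 365.

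A stretch of 10 letters, CCAGAAGAGG, opened 4 of the 21 matches, those of Bcl11a 14 and Sox6 5, 12 and 13. These were picked out after their sequences had been seen and are shown for the shared letters, in the same way as above.
Bcl11a 14 (chr11:24247473-24247532, minus strand): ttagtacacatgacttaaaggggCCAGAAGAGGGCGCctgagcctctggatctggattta
Sox6 5 (chr7:115698274-115698333, minus strand): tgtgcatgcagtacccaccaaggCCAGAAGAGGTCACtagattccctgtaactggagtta
Sox6 12 (chr7:116113772-116113831, minus strand): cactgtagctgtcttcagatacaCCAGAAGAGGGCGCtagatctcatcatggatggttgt
Sox6 13 (chr7:116120359-116120418, minus strand): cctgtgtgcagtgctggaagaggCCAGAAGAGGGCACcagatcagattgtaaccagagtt
The repeat-masked share within 50 bp of these summits was 48.5%, 100%, 100% and 41.6%. At the other 17 member matches it ran from 0% to 38.6%, the highest at Sox6 14, with a median of 0%. All 4 were of modest signal, at 36.9, 63.6, 39.9 and 28.4. In the whole list, 6094 of 36020 matches began with the same letters, or 16.9%. More than 50% of the surrounding sequence was masked at 82.9% of them and at 8.99% of the other matches, with median signals of 53.1 and 104. The kind of repeat was not looked up.

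Other genes with a part in globin switching were bound at their starts in some cases. Of 14 other globin-switching factors, 7 had an optimal summit within 1 kb of a start, or 50%, against 35.2% of all 21938 protein-coding genes. Replicate 1 alone gave 10 of the 14 and replicate 2 alone gave 4, while the 35.2% holds for the optimal list only. Starts of every annotated transcript count here, and at 3 of the 7 the peak lay more than 1 kb from the outermost start of the gene, as it did at 27.6% of the protein-coding genes with such a peak. Zfpm1, the cofactor of GATA1 known as FOG1, had the strongest such peak of the list, at an internal start 51.2 kb into the gene, with a signal of 413 and relative signals of 7.31 and 5.06 in replicates 1 and 2, or 6.18 ± 1.59 (SD, n = 2). Nr2c1, the orphan receptor TR2 of a complex that represses embryonic globin genes, had 139, with 2.97 and 1.67, or 2.32 ± 0.916 (SD, n = 2). Gata1, the master regulator of red cell genes, had 106 at a start 10.1 kb into the gene, with 2.05 and 1.19, or 1.62 ± 0.608 (SD, n = 2). Ikzf1, Klf1, an activator of the adult beta-globin gene and of Bcl11a, Myb and Atf4 carried weak peaks of 15.2 to 21.5, and none lay at the starts of Hic2, Igf2bp1, Lin28b, Nfia, Nfix, Nr2c2 or Zbtb7a. The peaks at Klf1 and Atf4 had no peak of replicate 2 within 100 bp, and that at Myb had none of either replicate.

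Many corepressors through which BCL11A acts also had CTCF at their starts. Of 20 genes of the NuRD complex, the LSD1 complex, the DNA methyltransferase Dnmt1 and related repressors, 13 had a promoter peak, or 65.0%, against the same 35.2% of all protein-coding genes. Here replicate 1 alone gave 16 of the 20 and replicate 2 alone gave 10, and again the 35.2% holds for the optimal list only. Among the 13, the peaks at Mta3 and Rcor1 had no peak of replicate 2 within 100 bp, and that at Rbbp4 had none of replicate 1. The strongest such peak had a motif match at 1 of the 13, against 48% of the 7727 genes bound this way in the whole annotation, and it lay more than 1 kb from the outermost start at 6 of them. Kdm1a, the histone demethylase LSD1, had a signal of 470 at its outermost start, with 8.53 and 5.71 in replicates 1 and 2, or 7.12 ± 1.99 (SD, n = 2). Mbd2, which binds methylated DNA within NuRD, had 321 at a start 12.7 kb into the gene, with 5.58 and 4.06, or 4.82 ± 1.07 (SD, n = 2). Sin3a, a scaffold for histone deacetylases, had 112 at a start 2.40 kb into the gene, with 2.21 and 1.12, or 1.66 ± 0.764 (SD, n = 2). Of the 3 paralogs, Sox13 had a promoter peak, at an internal start 38.7 kb into the gene, with a signal of 316 and relative signals of 5.80 and 3.80, or 4.80 ± 1.42 (SD, n = 2). Beside these, the promoter peaks of Bcl11a, at 134 and 101, were of the strength of those at Nr2c1 and Gata1, and that of Sox6, at 265, lay below that at Zfpm1. Those genes are the strongest of their list. The median of the strongest promoter peak was 21.5 over the bound globin-switching factors, 72.1 over the bound corepressors and 70.2 over the 7727 bound protein-coding genes.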

How the data were processed

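CTCF ChIP-seq from 1 group of 2 libraries was analysed from 5 deposited peak lists on build mm10, 1 for each replicate, 1 pooled, and 2 thresholded by IDR. Per the deposited text files, peaks were called on alignments with a control, by a caller not given in the sources used here. Read numbers are unknown. The deposited signal is the caller's value per peak and was compared within a list only. The deposited files also give the summit as an offset in bases, with no other unit. The control and the remaining columns were not analysed here.

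Summits were placed on GENCODE vM21 and the GRCm38 genome with Python 3.11.15, pandas 2.3.3, numpy 2.4.6 and pysam 0.24.0, and drawn with matplotlib 3.10.9. A promoter peak lay within 1 kb of a transcript start. Lists were matched by summits within 100 bp. Relative signals were looked up in the full list of 300000 peaks of each replicate. For the median that sets their scale, for replicate support and for replicate counts, each replicate was cut to its 50909 strongest peaks unless another number is given. The core CTCF motif, of 14 letters, had to lie wholly within 50 bp of the summit. GC content was taken within 100 bp. Shares of optimal peaks carry no replicate error. The motif share was 73.3% for the Bcl11a window (Wilson 95% interval 48.0 to 89.1) and 66.7% for the Sox6 window (41.7 to 84.8), which covers counting error only. The matching steps were tested on simulated data.

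Peaks given with full values were those at a member's start, the 6 strongest of each window, the outermost, the weakest and those without conservative support, and the 3 genes of each gene list whose promoter peak was strongest. Members that fall outside this rule were singled out after their values were seen. The members and gene lists were chosen with earlier results of these data known. Alternatives were the conservative list, each replicate alone, peaks above the median signal, other flanks, summit distances, promoter widths, motif settings and numbers of replicate peaks.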

Additional observations from a re-analysis of the deposited data

How the results depend on the processing

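Of 88 alternatives tried on 13 counts, 60 gave a count within 1.5 times the reported one. The remaining 28 were as follows. The Bcl11a gene body with no flank held 4 peaks, 4 with conservative and 4 with replicate support, and 2 with a motif, and for the Sox6 gene body all of these counts were 3. With flanks of 50 kb, the Bcl11a window held 7 motif peaks, and the Sox6 window held 7 peaks, 6 with conservative support, 6 with replicate support and 5 with a motif. Above the median signal of the list, Bcl11a kept 5 peaks and 4 with a motif, Sox6 6 and 4, and promoter peaks were counted at 3 globin-switching factors and 7 corepressors. With at most 1 mismatch, each window held 6 motif peaks. Promoters of 5 kb gave 5 Bcl11a peaks, 2 Sox6 peaks and 2 paralogs, and promoters of 500 bp gave 1 Bcl11a peak. With 1 replicate left out in turn, promoter counts ran from 1 to 3 peaks for Sox6, from 1 to 2 paralogs and from 4 to 10 globin-switching factors. Merging overlapping peaks, chosen after the data were seen, gave 15 Bcl11a and 13 Sox6 peaks. No paired analysis was possible because there is 1 group. With 2 libraries of 1 biosample, no reads counted and no stated signal scale, levels hold within a list and say nothing of variation between embryos.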
